A study of Mus musculus with 16 samples.

Results

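Chaperones are proteins that bind other proteins while these fold, assemble or cross a membrane. The chaperone genes described here are the heat shock protein (HSP), J-domain (DNAJ) and CCT families, as measured by RNA sequencing of mouse kidney. They were chosen by gene symbol, with no measured value used: symbols of the Hspa, Hspb, Hspd, Hspe, Hsph, Hsp90, Dnaja, Dnajb and Dnajc series and the CCT subunits with Tcp1. The rule matched 74 of the 13430 genes in the table, and 73 remained once Hspbap1, which is not a chaperone of these families, was left out. They comprised 13 genes of the Hsp70 and Hsp110 family, 3 Hsp90 genes, 5 genes grouped by symbol alone as small heat shock proteins, the 2 mitochondrial chaperonin genes Hspd1 and Hspe1, 8 CCT genes, 4 DNAJA, 11 DNAJB and 26 DNAJC genes, and Hspbp1, which codes for a nucleotide exchange factor of Hsp70. No gene among the deposited values had the symbol Cct6a or Hspa14, so neither was analysed here.

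The study asked how the kidney transcriptome of mice without the insulin receptor-related receptor (IRR, gene Insrr), a receptor that responds to alkaline pH, differs from wild type at rest and under an alkali load. There were 4 groups of 4 mice: IRR(-/-) on bicarbonate, IRR(-/-) on water, wild type on bicarbonate, and wild type on water. The bicarbonate groups drank 250 mM NaHCO3 at pH 8.5 for 7 days, and the water groups drank water without it. All 16 mice were C57BL/6 females aged 2 to 3 months that had fasted for 12 h with free access to their drink, and each mouse gave 1 library, made from the central 3 mm of a kidney. The labels do not say which part of Insrr the knockout removes, whether the mice were littermates, or when the libraries were made, so a batch that followed genotype cannot be told apart from genotype.

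The Hsp70 proteins hold unfolded stretches of a client under control of ATP. DNAJ proteins bring clients to Hsp70 and start its ATP cleavage, and the Hsp110 proteins free its nucleotide. Hsp90 acts later, on clients such as kinases and steroid receptors, and the small heat shock proteins keep unfolding proteins from clumping without ATP. The chaperonins are closed chambers: Hsp60 (Hspd1) with its lid Hsp10 (Hspe1) in mitochondria, and the CCT ring, which folds actin and tubulin, in the cytosol. Some of these genes are switched on by the heat shock factor HSF1 when cytosolic proteins unfold, and the endoplasmic reticulum (ER) members by the unfolded protein response. Kidney tubule cells are rich in mitochondria and in secretory and membrane proteins, so that folding in each of these compartments is part of their work.

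The values are RPKM, which scales reads to transcript length and library size, as deposited by the authors, with no counts or library depths given. Median RPKM over all genes on water was 8.44 to 8.53 in IRR(-/-) and 8.66 to 8.91 in wild-type libraries, without overlap. On bicarbonate it was 8.62 to 8.78 in IRR(-/-) and 8.66 to 8.92 in wild-type libraries, which overlapped. The 13 genes of the mitochondrial genome made up 82.6 to 84.9% of summed RPKM in IRR(-/-) libraries and 69.6 to 74.2% in wild-type libraries, so the genotypes did not overlap in this share. Insrr itself was not absent: it was 3.31 to 4.11 RPKM in IRR(-/-) libraries, below all wild-type libraries, which had 4.20 to 6.73 RPKM. The first principal component of all genes held 25.4% of the variance and separated the genotypes. On the second component replicate 3 of wild type on bicarbonate lay far from all others; without it 21 members were called between the genotypes on bicarbonate.

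Chaperone RNA was abundant and its total was alike in the groups. The 73 genes summed to 1.29 to 1.63% of the RPKM outside the mitochondrial genome in IRR(-/-) libraries and to 1.35 to 1.64% in wild-type libraries, so these ranges overlapped. Such a total depends most on the most abundant genes. The median RPKM of the 73 genes on water was 20.173 to 21.770 in IRR(-/-) and 21.775 to 25.389 in wild-type libraries, narrowly without overlap. On bicarbonate it was 21.4 to 24.1 in IRR(-/-) and 23.0 to 25.8 in wild-type libraries, which overlapped. Over all libraries 13 genes averaged at least 100 RPKM, 37 lay between 10 and 100, 20 between 1 and 10, and 3 (Cct6b, Hspa1l and Hspa2) below 1 RPKM. Hspa8, the cytosolic Hsp70 that is made without stress, had the highest level at 2028 RPKM. The next 8 were Hsp90ab1, the Hsp90 made without stress, at 515 RPKM, then the mitochondrial Hsp70 gene Hspa9 at 321, the ER Hsp90 gene Hsp90b1 at 279, the J-protein gene Dnaja1 at 276, Hspe1 at 247, the ER Hsp70 gene Hspa5 at 226, Hspd1 at 223 and the stress-inducible Hsp90 gene Hsp90aa1 at 186. The classical heat-inducible Hsp70 genes were far lower, with Hspa1b at 31.9 and Hspa1a at 12.1 RPKM. Of the CCT genes, which code for subunits that stand in equal number in the ring, 6 lay between 49.6 RPKM (Cct3) and 114 RPKM (Tcp1), while Cct7 was at 11.6 and Cct6b, known in mouse as a testis form, at 0.879. Hspa2, an Hsp70 best known from testis, was listed at 0 in 10 libraries and reached 1.23 RPKM in 1 wild-type bicarbonate library. It was the single member too low to be tested.

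Chaperone genes differed between the genotypes on both drinks, and none passed the test between the drinks. Each gene was tested with limma on log2(RPKM + 0.1), with Benjamini-Hochberg adjustment over all 12943 genes tested and a threshold of 0.05. On water, 7 of the 72 tested chaperone genes were higher and 20 lower in IRR(-/-) than in wild-type kidneys, which is 37.5% called, against 21.9% of all genes tested (10.1% higher and 11.8% lower). On bicarbonate, 6 were higher and 17 lower in IRR(-/-) kidneys, or 31.9% called, against 18.4% of all genes (9.03% higher and 9.36% lower). At an unadjusted p under 0.05 there were 37 members on water and 32 on bicarbonate, beside 34.3% and 31.4% of all genes. Groups did not overlap for 27 of the 72 genes on water, 6 with IRR(-/-) above and 21 with it below, against 23.8% of all genes, and for 22 on bicarbonate, 4 above and 18 below, against 22.8%. The median log2 difference of the 72 genes was -0.05 on water and -0.07 on bicarbonate, beside -0.05 and -0.02 for all genes. The difference was positive for 32 of the 72 genes on water and 31 on bicarbonate, beside 44.7% and 48.1% of all genes. These 2 comparisons share no library.

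Abundant genes were called more often throughout the table, and this bears on how those shares are read. On water 69.2% of the 13 members at 100 RPKM or more were called, against 50.4% of all genes at that level. At 20 to 100 RPKM the shares were 48.1% of 27 members and 33.7% of all genes, and at 5 to 20 RPKM 19.0% of 21 members and 21.4% of all genes. On bicarbonate the same 3 levels gave 46.2% of members and 42.6% of all genes, 48.1% and 29.1%, and 19.0% and 17.8%. The members' share was above that of all genes at 20 to 100 RPKM on both drinks and at 100 RPKM or more mainly on water, and close to it at 5 to 20 RPKM. No test was made of these differences.

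The calls on the 2 drinks named many of the same genes. The share of all genes called alike on both drinks was not counted, so this is not shown to be particular to chaperones. Lower on both drinks were 15 genes, out of 20 lower on water and 17 lower on bicarbonate: Tcp1, Cct2, Cct3, Cct4, Cct5 and Cct8 of the CCT ring, Hspd1 and Hspa9 of the mitochondrion, the Hsp110 gene Hspa4, and Dnajc2, Dnajc3, Dnajc7, Dnajc8, Dnajc12 and Dnajc22. Higher on both were 4 genes, Hspe1, Dnajc4, Dnajb12 and Hspb6. On water alone Cct7, Dnajc19 and Hspb7 were higher and Hspa5, Hsp90b1, Hspa13, Hsp90aa1 and Dnajb4 lower. On bicarbonate alone Hspa8 and Dnajc30 were higher and Dnaja2 and Dnajb1 lower. No member was higher on 1 drink and lower on the other, and 41 were called on neither.

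**Figure D1:**
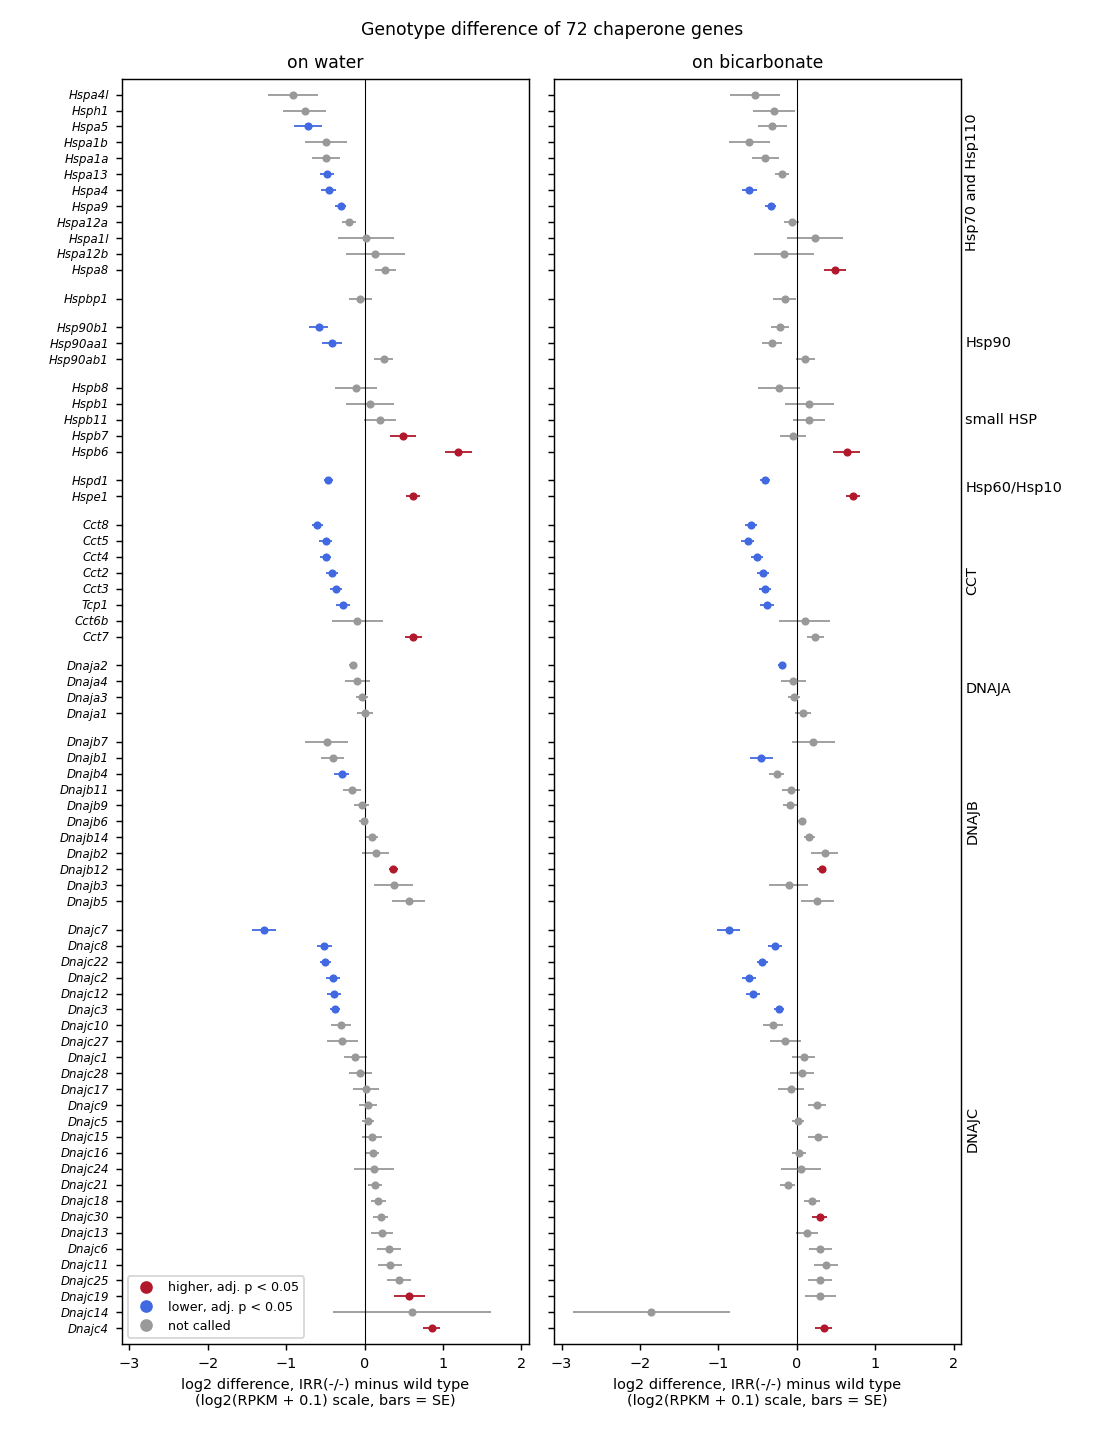
Log2 difference between IRR(-/-) and wild-type kidneys (x axis, log2(RPKM + 0.1) scale) for each of the 72 chaperone genes tested (rows, by family), on water (left) and on bicarbonate (right). Points are the fitted difference, bars its SE, red marks genes higher and blue genes lower in IRR(-/-) with adjusted p under 0.05, and grey the rest; 6 of 8 CCT genes lie to the left on both drinks, and Hspd1 and Hspe1 lie on opposite sides.

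The sums of some marker lists of kidney cell types did not overlap between the genotypes. Those of collecting duct principal cells, podocytes, endothelium, smooth muscle and pericytes, fibroblasts, urothelium, adrenal and immediate early genes overlapped on both drinks. Those of intercalated cells, distal convoluted tubule and blood overlapped on water. Of single genes, 23.8% of all tested did not overlap on water and 22.8% on bicarbonate. The summed RPKM of 6 proximal tubule markers was 1603 to 1742 in IRR(-/-) and 1829 to 2166 in wild-type kidneys on water, and 1525 to 1622 in IRR(-/-) and 1635 to 1918 in wild-type kidneys on bicarbonate. Of these 6, Slc34a1 and Slc5a2 were lower and Slc22a6 higher in IRR(-/-) on water, and Slc5a2 was lower on bicarbonate. The 3 thick limb markers summed to 935 to 1120 in IRR(-/-) and 1230 to 1434 in wild-type kidneys on water and overlapped on bicarbonate, and the 4 immune markers summed to 103 to 127 in IRR(-/-) and 59.4 to 95.6 in wild-type kidneys on water. On bicarbonate the sums of 4 lists beside the proximal tubule did not overlap. Immune markers summed to 98.3 to 107 in IRR(-/-) and 78.4 to 97.8 in wild-type kidneys, intercalated cell markers to 76.3 to 82.0 in IRR(-/-) and 99.2 to 137 in wild-type kidneys, distal convoluted tubule markers to 228 to 234 in IRR(-/-) and 204 to 222 in wild-type kidneys, and blood markers to 231 to 609 in IRR(-/-) and 805 to 1541 in wild-type kidneys. In these bulk samples fewer cells of a type and less RNA per cell cannot be told apart. The part of these shifts, and of the mitochondrial RNA share, in the chaperone differences was not tested. When libraries were instead scaled by the median of ratios, the water count was 8 up against 18 down and the bicarbonate count 6 up against 16 down. Under that scaling 1473 of the 2755 genes called on water were higher, against 1303 of 2833 without it, and 1254 of 2384 on bicarbonate, against 1169 of 2381.

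The 2 genes of the mitochondrial chaperonin moved in opposite directions with genotype. Hspd1 codes for Hsp60, whose rings form the folding chamber, and Hspe1 for Hsp10, its lid. They lie head to head on chromosome 1 (GENCODE M21, GRCm38), Hspe1 at chr1:55088132-55091307 on the plus strand and Hspd1 at chr1:55077835-55088243 on the minus strand, and their annotated 5′ ends overlap. No source used here says whether the quantification took account of read strand, so reads from the overlap may have been given to either gene. The promoter window of Hspe1 is shown because it is shared by both: it runs from 250 bases before to 50 after the start in the RefSeq annotation of GRCm38.p6, at chr1:55087898-55088197 on the plus strand. Capitals mark 2 overlapping matches to the heat shock element, the repeated site that HSF1 binds.

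Hspe1 promoter: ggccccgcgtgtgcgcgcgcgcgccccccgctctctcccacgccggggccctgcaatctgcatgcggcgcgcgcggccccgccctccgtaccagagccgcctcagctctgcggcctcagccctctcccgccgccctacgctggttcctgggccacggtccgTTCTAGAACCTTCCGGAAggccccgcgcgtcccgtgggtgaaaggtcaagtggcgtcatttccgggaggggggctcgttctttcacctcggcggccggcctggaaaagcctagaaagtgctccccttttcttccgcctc

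The element was searched on both strands as 3 units GAA in alternating orientation (GAA or its complement TTC), with 2 bases of any kind between units, and overlapping matches were counted. The first match begins at position -89 from the start of Hspe1, and the same bases, read on the other strand, begin at -144 in a window of Hspd1. Promoter windows were found for 60 of the 73 genes, and 4 of these genes held the element (Dnajb6, Hspd1, Hspe1 and Hsph1), which is 6.67%, against 0.662% of the 27025 genes with a window. A match is a description of the letters and does not show binding. Only exact matches within these windows were counted, so a gene without one is not shown to lack the element.

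Hspd1 was 191, 203, 179 and 212 RPKM in the IRR(-/-) water libraries, against 279.5, 264, 262 and 273 in wild type on water. The bicarbonate libraries had 190.3, 192, 171 and 184 RPKM in IRR(-/-) and 234, 239.9, 252 and 248 in wild type. Every IRR(-/-) library lay below every wild-type library on the same drink. Its log2 difference was -0.46 ± 0.06 (SE) on water (limma, adjusted p = 7.76e-05) and -0.40 ± 0.06 on bicarbonate (adjusted p = 0.000331).

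Hspe1 went the other way. It was 289, 292, 318 and 317 RPKM in IRR(-/-) and 224, 190.4, 182 and 197 in wild-type kidneys on water, and 331, 296, 291 and 288 RPKM in IRR(-/-) and 165, 181, 225 and 168 in wild-type kidneys on bicarbonate. Again the genotypes did not overlap on either drink. The log2 difference was 0.62 ± 0.09 on water (adjusted p = 0.000287) and 0.72 ± 0.09 on bicarbonate (adjusted p = 0.000116).

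The ratio of Hspe1 to Hspd1 within a library, chosen as a measure after these values had been seen, was 1.56 ± 0.153 in IRR(-/-) and 0.735 ± 0.0470 in wild-type kidneys on water (SD, n = 4 each). On bicarbonate it was 1.64 ± 0.0967 in IRR(-/-) and 0.758 ± 0.0955 in wild-type kidneys. The lowest IRR(-/-) ratio of all 8 was 1.44 and the highest wild-type ratio 0.893, so lid RNA exceeded chamber RNA in every IRR(-/-) library and in no wild-type library. The log2 differences of the ratio were 1.08 and 1.12. They are a description with no test, since both genes had been seen to separate the genotypes in opposite directions when the ratio was chosen. The ratio is of 1 short and 1 longer transcript, 964 and 2423 nt, and after correction of each library for transcript length and GC content the log2 differences were 0.89 and 1.0. Of the 31-base words of Hspd1, 55.8% also occur in other genes of the annotation, most of them in the pseudogene Hspd1-ps3, and 14.1% of those of Hspe1, so the division of reads among these copies by the authors' quantification can enter both levels.

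**Figure D2:**
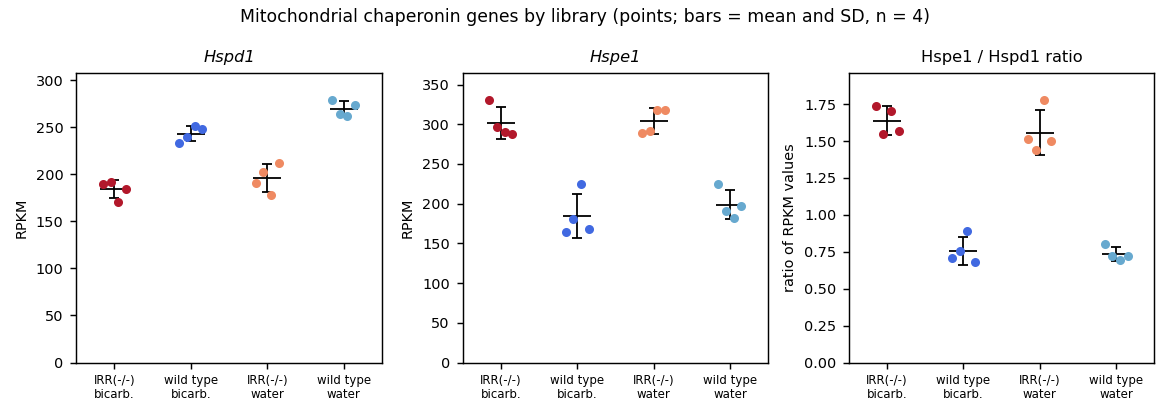
RPKM of Hspd1 and Hspe1 and their ratio in each library (y axes, from 0), by group (x axis). Points are libraries and bars the mean and SD of 4; Hspd1 is lower and Hspe1 higher in IRR(-/-) on both drinks, and the ratio is above 1.43 in all IRR(-/-) libraries and below 0.90 in all wild-type libraries.

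Other mitochondrial members were also divided. Of the 10 genes set under this heading, 3 were higher and 2 lower in IRR(-/-) kidneys on each drink. Of all genes tested, the water comparison called 10.1% up and 11.8% down, and the bicarbonate comparison 9.03% up and 9.36% down. The 10 genes had a median log2 difference of 0.15 on water and 0.28 on bicarbonate. Hspa9, the mitochondrial Hsp70 that pulls proteins through the inner membrane, was 299, 282, 270.2 and 318 RPKM in IRR(-/-) and 344, 375, 381 and 346 in wild-type kidneys on water. With bicarbonate the levels were 279, 281, 286 and 266 in IRR(-/-) and 338, 335, 404 and 326 in wild-type kidneys. It fell without overlap on both, by a log2 difference of -0.31 ± 0.07 on water (adjusted p = 0.00705) and -0.33 ± 0.07 on bicarbonate (adjusted p = 0.00548).

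Dnajc19 codes for the J-protein that drives Hspa9 at the import channel. Its levels were 110.3, 192, 188 and 190.4 RPKM in IRR(-/-) and 119, 123, 91.0 and 117 in wild-type kidneys on water. The first IRR(-/-) library lay within the wild-type range and the other 3 well above it. The log2 difference of 0.57 ± 0.20 passed the threshold narrowly (adjusted p = 0.0483), and the call was lost when any 1 of 7 of the 8 libraries was left out, the exception being IRR(-/-) water replicate 1. On bicarbonate the difference was 0.30 ± 0.20 (adjusted p = 0.311), and the interaction was -0.27 ± 0.28 (adjusted p = 0.81).

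Dnajc4 was 16.0, 14.8, 14.8 and 12.1 RPKM in IRR(-/-) and 8.48, 7.61, 8.34 and 7.12 in wild-type kidneys on water, with no overlap and a log2 difference of 0.86 ± 0.11 (adjusted p = 6.23e-05). On bicarbonate it was 12.3, 11, 13.2 and 11.7 RPKM in IRR(-/-) and 8.46, 8.72, 11.2 and 9.77 in wild-type kidneys. The groups overlapped there, with a difference of 0.34 ± 0.11 (adjusted p = 0.0393), a call lost when any library but IRR(-/-) replicate 2 or wild-type replicate 3 was left out. Dnajc30, a mitochondrial J-protein gene, was 19.5 ± 1.25 RPKM in IRR(-/-) and 16.0 ± 1.73 in wild-type kidneys on bicarbonate (SD, n = 4 each), a log2 difference of 0.29 ± 0.09 (adjusted p = 0.0362) that was lost when any library but IRR(-/-) replicate 1 or wild-type replicate 3 was left out.

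Most genes of the CCT ring were lower in IRR(-/-) kidneys. Of its 8 measured genes, 6 were lower on both drinks, and in all 12 of these contrasts the groups did not overlap. Of all genes tested, 11.8% were lower on water and 9.36% on bicarbonate. Groups did not overlap, in either direction, for 23.8% of all genes on water and 22.8% on bicarbonate. Among all genes at 20 to 100 RPKM, 33.7% and 29.1% were called in either direction. The family's median log2 difference was -0.39 on water and -0.42 on bicarbonate.

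Cct8 was 85.4, 85.5, 85.3 and 88.5 RPKM in IRR(-/-) and 122, 148, 135 and 119.9 in wild-type kidneys on water. The bicarbonate groups had 84.1, 87.9, 86.6 and 75.7 in IRR(-/-) and 121, 114, 136 and 129 in wild-type kidneys. All 8 IRR(-/-) libraries lay below all 8 wild-type libraries. The log2 difference was -0.60 ± 0.08 on water (adjusted p = 6.04e-05) and -0.58 ± 0.08 on bicarbonate (adjusted p = 0.000109).

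Cct5 was 59.0, 59.1, 53.9 and 68.3 RPKM in IRR(-/-) and 84.1, 83.5, 92.9 and 78.2 in wild-type kidneys on water, and 64.4, 58.1, 52.7 and 54.8 in IRR(-/-) and 87.5, 84.7, 94.9 and 87.6 in wild-type kidneys on bicarbonate. Here too every IRR(-/-) library was below every wild-type library, with log2 differences of -0.50 ± 0.08 (adjusted p = 0.000554) and -0.63 ± 0.08 (adjusted p = 0.000111). Cct4 was 73.8, 75.0, 72.6 and 87.3 RPKM in IRR(-/-) and 109.5, 118, 107 and 101 in wild-type kidneys on water, and 80.5, 76.9, 81.6 and 69.6 in IRR(-/-) and 104, 106, 118 and 109.9 in wild-type kidneys on bicarbonate. Its differences, -0.50 ± 0.07 (adjusted p = 0.000256) and -0.51 ± 0.07 (adjusted p = 0.000292), were close to those of Cct5.

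Cct2 was 70, 64.0, 64.2 and 78.1 RPKM in IRR(-/-) and 95.5, 94.6, 91.9 and 87 in wild-type kidneys on water, and 72.5, 69.7, 66.6 and 61.5 in IRR(-/-) and 93.2, 85.4, 100.3 and 87 in wild-type kidneys on bicarbonate. Cct3 was 42.1, 39.4, 42.9 and 50.3 RPKM in IRR(-/-) and 59.2, 54.7, 53.4 and 56.2 in wild-type kidneys on water, and 43.4, 44.1, 43.7 and 39.0 in IRR(-/-) and 55.8, 52.7, 62.0 and 54.5 in wild-type kidneys on bicarbonate. Both genes separated the genotypes completely. Cct2 had log2 differences of -0.42 ± 0.08 on water and -0.44 ± 0.08 on bicarbonate (adjusted p = 0.00117 and 0.00121), and Cct3 of -0.36 ± 0.08 and -0.40 ± 0.08 (adjusted p = 0.00384 and 0.00216). The smallest change among the 6 was that of Tcp1, subunit alpha of the ring. It was 107, 94.4, 93.9 and 105 RPKM in IRR(-/-) and 126, 119, 126 and 114 in wild-type kidneys on water, a log2 difference of -0.28 ± 0.09 (adjusted p = 0.0324). Corrected for length and GC content the water difference was -0.13 (adjusted p = 0.375), which ended that call, as did leaving out IRR(-/-) water replicate 2 or 3 or wild-type water replicate 1, 2 or 3, and median-of-ratios scaling. On bicarbonate the difference was -0.38 ± 0.09 (adjusted p = 0.00695) and was kept without any 1 library.

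Cct7 stood against the other subunits on water. Its levels there were 13.3, 12.2, 13.7 and 17.0 RPKM in IRR(-/-) and 10.5, 8.30, 8.54 and 9.08 in wild-type kidneys, with no overlap and a log2 difference of 0.62 ± 0.11 (adjusted p = 0.000963). On bicarbonate it was 13.5, 13.1, 12.3 and 11.2 RPKM in IRR(-/-) and 10.1, 11.7, 11.1 and 9.52 in wild-type kidneys, which overlapped, and the difference was 0.24 ± 0.11 (adjusted p = 0.149). The 2 differences were not shown to differ from each other (interaction -0.38 ± 0.16, adjusted p = 0.566). Cct6b was 1.01, 1.02, 0.560 and 0.612 RPKM in IRR(-/-) and 1.12, 1.09, 0.466 and 0.819 in wild-type kidneys on water and at most 1.65 RPKM in any library, with differences of -0.09 ± 0.33 and 0.10 ± 0.33 that did not pass.

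**Figure D3:**
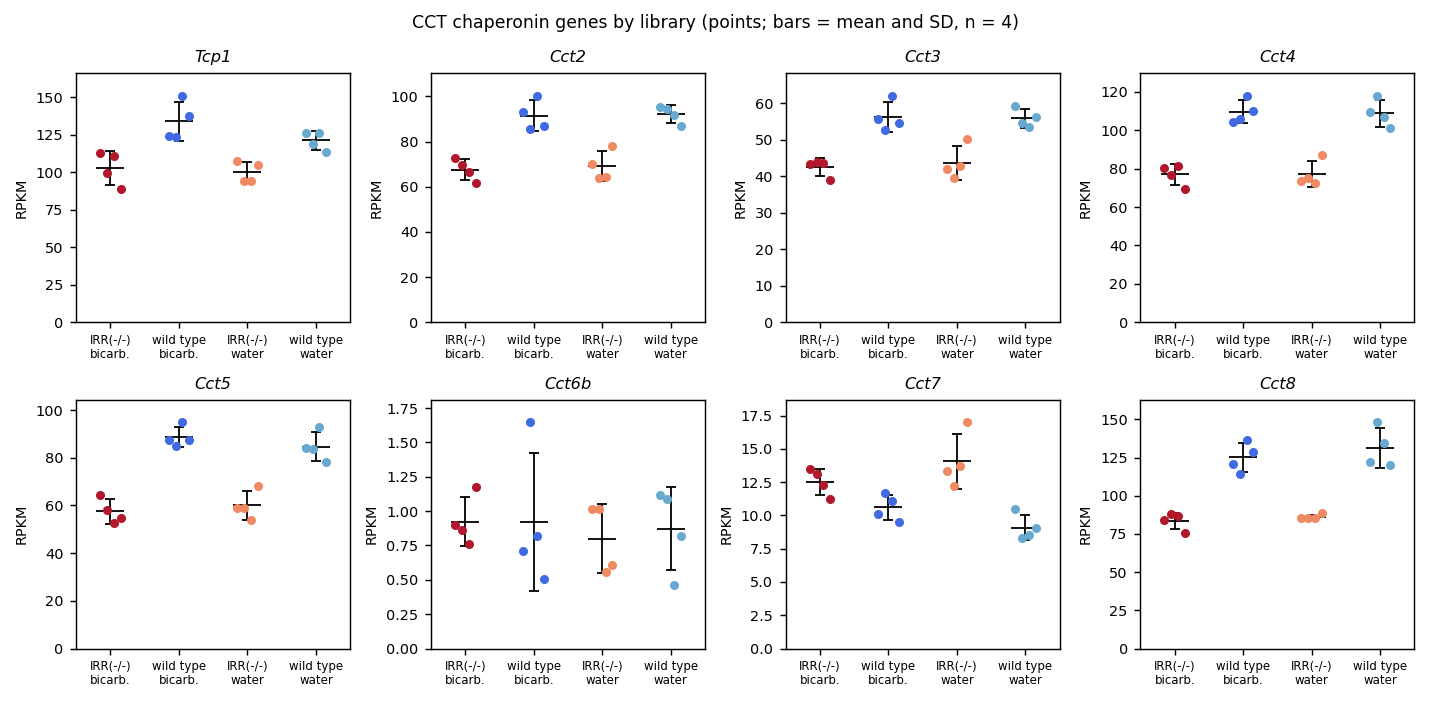
RPKM of the 8 measured CCT genes in each library (y axes, from 0), by group (x axes). Points are libraries and bars the mean and SD of 4; in Tcp1, Cct2, Cct3, Cct4, Cct5 and Cct8 each IRR(-/-) group lies below the wild-type group on the same drink, Cct7 lies above it on water, and Cct6b is at most 1.65 RPKM in any library.

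Among ER members Hspa5, Hsp90b1, Dnajc3 and Hspa13 were lower in IRR(-/-) kidneys on water. Of 13 ER members these 4 were lower and 1 higher there, beside 11.8% of all genes lower and 10.1% higher, and 8 were not called. On bicarbonate 1 was lower and 1 higher, beside 9.36% and 9.03% of all genes. The medians were -0.12 on water and -0.08 on bicarbonate. Of the 4 lower genes, 3 (Hspa5, Hsp90b1 and Dnajc3) are those whose promoter windows hold the ER stress element, to which factors of the unfolded protein response bind. This is why these windows are shown, from RefSeq on GRCm38.p6: Hspa5 at chr2:34771840-34772139 on the plus strand, Hsp90b1 at chr10:86705395-86705694 on the minus strand and Dnajc3 at chr14:118937682-118937981 on the plus strand. Capitals mark the matches.

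Hspa5 promoter: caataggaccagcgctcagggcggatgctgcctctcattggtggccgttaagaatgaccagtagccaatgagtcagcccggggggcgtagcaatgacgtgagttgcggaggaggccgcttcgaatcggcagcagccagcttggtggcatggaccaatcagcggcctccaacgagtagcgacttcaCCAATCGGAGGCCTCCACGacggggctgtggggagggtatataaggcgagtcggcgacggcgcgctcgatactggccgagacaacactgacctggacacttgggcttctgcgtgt
Hsp90b1 promoter: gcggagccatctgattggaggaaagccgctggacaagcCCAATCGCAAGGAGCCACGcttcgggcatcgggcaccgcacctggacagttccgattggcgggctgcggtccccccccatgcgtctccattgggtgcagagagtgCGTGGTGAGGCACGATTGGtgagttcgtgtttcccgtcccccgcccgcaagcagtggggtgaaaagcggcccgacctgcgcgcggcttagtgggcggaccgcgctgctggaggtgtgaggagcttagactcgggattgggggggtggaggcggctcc
Dnajc3 promoter: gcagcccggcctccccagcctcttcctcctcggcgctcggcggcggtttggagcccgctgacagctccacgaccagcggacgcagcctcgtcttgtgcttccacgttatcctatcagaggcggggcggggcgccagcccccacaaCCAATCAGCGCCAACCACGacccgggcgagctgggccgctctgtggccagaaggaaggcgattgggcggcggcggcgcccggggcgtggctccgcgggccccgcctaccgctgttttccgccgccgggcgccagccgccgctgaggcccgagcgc

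The element was searched on both strands as CCAAT and CCACG with 9 bases of any kind between them. Of the 60 member genes with a window these 3 held it, which is 5.0%, against 0.137% of all genes with a window. Hspa5 has 1 match, which begins at position -65, and Dnajc3 1 at -105. Hsp90b1 has 2, of which the first begins at -212 and the second reads on the opposite strand. The presence of the letters is no evidence on what bound them in these kidneys.

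Hspa5 codes for BiP, the ER Hsp70 that also holds the stress sensors inactive. It was 131, 138, 175 and 204 RPKM in IRR(-/-) and 318, 294, 243 and 209 in wild-type kidneys on water. The IRR(-/-) libraries lay below all 4 wild-type libraries, though the highest of them came within a few RPKM of the lowest wild-type library. The log2 difference was -0.72 ± 0.18 (adjusted p = 0.0111). Under bicarbonate Hspa5 was 290.0, 206, 201 and 160.5 RPKM in IRR(-/-) and 241, 225, 294 and 286 in wild-type kidneys, which overlapped, with a difference of -0.31 ± 0.18 (adjusted p = 0.269).

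Hsp90b1, the ER Hsp90 (GRP94), had a like pattern. It was 184, 210.2, 240.3 and 245 RPKM in IRR(-/-) and 382, 354, 305 and 280.3 in wild-type kidneys on water, a log2 difference of -0.59 ± 0.12 (adjusted p = 0.00256) without overlap. Under bicarbonate Hsp90b1 was 294, 275, 254 and 228 RPKM in IRR(-/-) and 285, 283, 352 and 299 in wild-type kidneys, a difference of -0.21 ± 0.12 (adjusted p = 0.235). That the difference was called on water and not on bicarbonate does not show that it depended on drink: the interaction was 0.41 ± 0.26 for Hspa5 (adjusted p = 0.695) and 0.37 ± 0.17 for Hsp90b1 (adjusted p = 0.597).

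Dnajc3 codes for a J-protein of the ER lumen that restrains the stress kinase PERK. It was 48.6, 50.5, 53.6 and 52.9 RPKM in IRR(-/-) and 63.4, 63.4, 69.7 and 71.3 in wild-type kidneys on water, with no overlap and a log2 difference of -0.38 ± 0.06 (adjusted p = 0.000642). On bicarbonate the means were 50.3 ± 3.47 RPKM in IRR(-/-) and 58.7 ± 2.12 RPKM in wild-type kidneys (SD, n = 4 each), a difference of -0.22 ± 0.06 (adjusted p = 0.0236), lost without IRR(-/-) bicarbonate replicate 3 or 4 or wild-type bicarbonate replicate 2 or 4. Hspa13, a small Hsp70-like protein of the ER, averaged 9.16 ± 0.620 RPKM in IRR(-/-) and 12.9 ± 1.17 RPKM in wild-type kidneys on water, a difference of -0.48 ± 0.09 (adjusted p = 0.00129). It had no overlap there, and on bicarbonate the difference was -0.18 ± 0.09 (adjusted p = 0.174), with an interaction of 0.30 ± 0.13 (adjusted p = 0.575).

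Dnajb12, a J-protein of the ER membrane that works in degradation of misfolded membrane proteins, was the ER member that went up. It was 27.5, 26.3, 30.4 and 25.8 RPKM in IRR(-/-) and 19.8, 21.8, 21.1 and 22.4 in wild-type kidneys on water, and 27.5, 26.0, 28.1 and 27.2 in IRR(-/-) and 21.9, 22.0, 22.3 and 21.1 in wild-type kidneys on bicarbonate. All 8 IRR(-/-) libraries exceeded all 8 wild-type libraries, with log2 differences of 0.37 ± 0.06 (adjusted p = 0.00072) and 0.32 ± 0.06 (adjusted p = 0.00278). The ER J-protein genes Dnajb9, Dnajb11 and Dnajc10, which deliver clients to BiP, had differences of -0.04 ± 0.09, -0.16 ± 0.12 and -0.30 ± 0.13 on water, none of which passed.

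**Figure D4:**
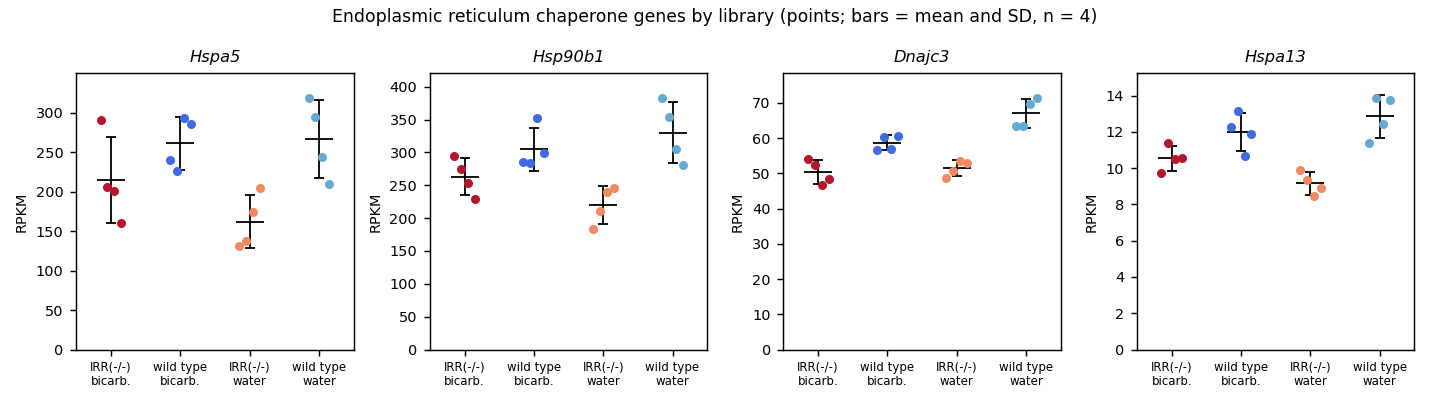
RPKM of Hspa5, Hsp90b1, Dnajc3 and Hspa13 in each library (y axes, from 0), by group (x axes). Points are libraries and bars the mean and SD of 4; on water all 4 genes lie lower in IRR(-/-) without overlap, and on bicarbonate Hspa5, Hsp90b1 and Hspa13 overlap between genotypes.

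The cytosolic stress genes were called about as often as genes in general. Of 11 genes set as stress-inducible or their constitutive partners, 2 were lower on water (Hsp90aa1 and Dnajb4), and on bicarbonate 1 was lower (Dnajb1) and 1 higher (Hspa8), beside 21.9% of all genes called on water and 18.4% on bicarbonate. Their median log2 differences were -0.29 and -0.26. Hsp90aa1 was 156, 134, 156 and 178 RPKM in IRR(-/-) and 232, 230.4, 183 and 189 in wild-type kidneys on water, a log2 difference of -0.42 ± 0.13 (adjusted p = 0.031) with no overlap. The call was lost without any 1 of 5 libraries (IRR(-/-) water replicates 1, 2 and 3, wild-type water replicates 1 and 2) and after correction for length and GC content (adjusted p = 0.119). Hsp90ab1 was 566, 534, 536 and 552 RPKM in IRR(-/-) and 535, 435, 441 and 446 in wild-type kidneys on water, and 719, 444, 535 and 488 in IRR(-/-) and 465, 481, 579 and 477 in wild-type kidneys on bicarbonate. It did not pass, with differences of 0.24 ± 0.12 on water and 0.11 ± 0.12 on bicarbonate.

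Hspa8 was 2704, 2171, 2278 and 2218 RPKM in IRR(-/-) and 1347, 1544, 2174 and 1715 in wild-type kidneys on bicarbonate. The highest wild-type library, replicate 3, which stood apart in the whole series, slightly exceeded the lowest IRR(-/-) library, and the other 3 lay below all 4. The log2 difference was 0.48 ± 0.14 (adjusted p = 0.0247). The call was lost without IRR(-/-) bicarbonate replicate 1 or without wild-type bicarbonate replicate 1 or 2. It was also lost under quantile normalization and in a fit of the 2 bicarbonate groups alone. On water it was 2194, 2016, 1987 and 2716 in IRR(-/-) and 2044, 2018, 1623 and 1705 in wild-type kidneys, a difference of 0.27 ± 0.14 (adjusted p = 0.193), with an interaction of 0.22 ± 0.20 (adjusted p = 0.784). Of its 31-base words 61.5% occur in other annotated genes, as do 62.9% of those of Hsp90aa1, so how the authors' quantification divided such reads can enter both levels.

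The heat-inducible Hsp70 genes and their nucleotide exchange factor Hsph1 (Hsp110) were lower in the mean but did not pass in the fit used here, and some passed on water under other settings. Hsph1 was 24.8, 20.2, 20.4 and 31.4 RPKM in IRR(-/-) and 50.8, 44.5, 32.3 and 36.9 in wild-type kidneys on water, without overlap, and the log2 difference was -0.77 ± 0.27 (adjusted p = 0.0561). It passed in a fit of the 2 water groups alone (adjusted p = 0.0199). On bicarbonate it was 44.3, 30.0, 28.6 and 27.3 RPKM in IRR(-/-) and 58.3, 26.3, 26.6 and 56.7 in wild-type kidneys, so the wild-type group held 2 high and 2 low animals. The difference was -0.29 ± 0.27 (adjusted p = 0.505).

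The same 2 wild-type animals, bicarbonate replicates 1 and 4, were high in Hspa1b, which was 25.8, 25.1, 26.1 and 24.5 RPKM in IRR(-/-) and 59.1, 31.8, 20.8 and 56.8 in wild-type kidneys on bicarbonate. On water Hspa1b was 28.2, 20.1, 22.2 and 29.8 in IRR(-/-) and 39.7, 40.9, 31.6 and 28.8 in wild-type kidneys. The differences were -0.49 ± 0.26 (adjusted p = 0.204) and -0.60 ± 0.26 (adjusted p = 0.13). Hspa1a was 12.3, 8.52, 8.33 and 11.2 RPKM in IRR(-/-) and 15.9, 14.9, 11.9 and 13.6 in wild-type kidneys on water, and 10.2, 11, 10.2 and 9.94 in IRR(-/-) and 15.5, 10.9, 10.6 and 19.2 in wild-type kidneys on bicarbonate. Its difference was -0.49 ± 0.18 on water (adjusted p = 0.0604) and -0.40 ± 0.18 on bicarbonate (adjusted p = 0.135). On water it passed after correction for length and GC content (-0.56, adjusted p = 0.0364). Hspa1a and Hspa1b are near-identical genes that share sequence (63.8% of the 31-base words of Hspa1a occur in Hspa1b), so their values are not independent of each other.

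Hspa4l, an Hsp110 gene best known from testis, had the largest fitted difference on water among the members that did not pass, -0.91 ± 0.32 (adjusted p = 0.0546), at 3.91 ± 0.624 RPKM in IRR(-/-) and 7.82 ± 2.89 RPKM in wild-type kidneys (SD, n = 4 each). Hspa4, a further Hsp110 gene that is made without stress, did pass. It was 80.8, 72.8, 59.5 and 68.7 RPKM in IRR(-/-) and 102, 96.6, 95.1 and 91.4 in wild-type kidneys on water, and 78.2, 63.9, 69.5 and 68.1 in IRR(-/-) and 112, 106, 91.8 and 116 in wild-type kidneys on bicarbonate. The genotypes did not overlap on either drink, and the log2 differences were -0.46 ± 0.10 (adjusted p = 0.00314) and -0.61 ± 0.10 (adjusted p = 0.000512). Dnajb1, the inducible J-partner of Hsp70, was 10.3, 8.27, 6.98 and 9.19 RPKM in IRR(-/-) and 10.5, 10.7, 11.9 and 14.5 in wild-type kidneys on bicarbonate, a difference of -0.45 ± 0.14 (adjusted p = 0.0424). The call was lost without IRR(-/-) bicarbonate replicate 2, 3 or 4 or wild-type bicarbonate replicate 3 or 4, and in a fit of the 2 bicarbonate groups alone. On water the difference was -0.41 ± 0.14 and did not pass (adjusted p = 0.0578), though it did after correction for length and GC content (adjusted p = 0.046). The interaction was -0.04 ± 0.20 (adjusted p = 0.971).

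Of the 5 genes grouped by symbol as small heat shock proteins, 2 were higher in IRR(-/-) kidneys on water and 1 on bicarbonate, beside 10.1% and 9.03% of all genes. Hspb6 (Hsp20), best known from smooth and heart muscle, was 11.3, 11.2, 12.7 and 9.57 RPKM in IRR(-/-) and 3.65, 3.96, 5.60 and 6.52 in wild-type kidneys on water. On bicarbonate it was 9.35, 10.2, 12.7 and 10.5 in IRR(-/-) and 6.08, 7.39, 8.08 and 5.83 in wild-type kidneys. The genotypes did not overlap on either drink, and its log2 difference on water, 1.20 ± 0.17 (adjusted p = 0.000184), was the highest of all chaperone genes. On bicarbonate the difference was 0.64 ± 0.17 (adjusted p = 0.0185), and the call was lost without IRR(-/-) bicarbonate replicate 3 or wild-type bicarbonate replicate 1 or 4.

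None of the 5 smooth muscle and pericyte markers was called on either drink. Their sums were 48.7 to 64.6 RPKM in IRR(-/-) and 41.9 to 56.6 RPKM in wild-type kidneys on water, and 43.7 to 83.1 in IRR(-/-) and 45.9 to 64.2 in wild-type kidneys on bicarbonate, so these ranges overlapped, and their part in the Hspb6 difference was not tested. Hspb7, a muscle form near 1 RPKM, averaged 1.19 ± 0.176 RPKM in IRR(-/-) and 0.818 ± 0.113 RPKM in wild-type kidneys on water (SD, n = 4 each), which overlapped by 1 library. Its log2 difference of 0.49 ± 0.17 (adjusted p = 0.0485) was lost without any library but IRR(-/-) replicate 4 or wild-type replicate 1 and in 5 of 9 other settings, a pseudocount of 1 among them. Hspb1 (Hsp25 of mouse) did not pass, with 20.3, 13.7, 16.5 and 15.5 RPKM in IRR(-/-) and 26.5, 12.4, 14.9 and 11.8 in wild-type kidneys on water.

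Of the J-protein genes called, Dnajc7 had the lowest log2 difference on both drinks. It codes for a co-chaperone that binds both Hsp70 and Hsp90, and lies at chr11:100582818-100620168 on the minus strand. It was 18.3, 19.9, 16.9 and 20.9 RPKM in IRR(-/-) and 50.4, 37.7, 50.2 and 48.0 in wild-type kidneys on water, and 21.6, 19.8, 26.9 and 25.3 in IRR(-/-) and 53.4, 31.8, 40.6 and 47.3 in wild-type kidneys on bicarbonate. All 8 IRR(-/-) libraries were below all 8 wild-type libraries. The log2 difference was -1.28 ± 0.15 on water (adjusted p = 2.86e-05) and -0.87 ± 0.15 on bicarbonate (adjusted p = 0.000969). Its longest transcript shares 11.3% of its 31-base words with Nkiras2.

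Dnajc2, which acts at the ribosome on new chains, was 28.4, 29.7, 26.3 and 27.1 RPKM in IRR(-/-) and 32.5, 41.9, 35.6 and 37.7 in wild-type kidneys on water, and 24.1, 23.7, 26.5 and 21.0 in IRR(-/-) and 36.4, 34.0, 34.4 and 40.1 in wild-type kidneys on bicarbonate. Its differences were -0.40 ± 0.09 (adjusted p = 0.00465) and -0.60 ± 0.09 (adjusted p = 0.000296). Dnajc12, the co-chaperone of the aromatic amino acid hydroxylases, was 52.8, 47.2, 58.2 and 53.5 RPKM in IRR(-/-) and 81.3, 88.0, 68.8 and 74.5 in wild-type kidneys on bicarbonate. It differed by -0.39 ± 0.09 on water (adjusted p = 0.00484) and by -0.56 ± 0.09 on bicarbonate (adjusted p = 0.000512). In both genes the genotypes did not overlap on either drink.

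Dnajc22, whose relative in Drosophila serves endocytosis, was 21.2, 19.3, 20.6 and 21.8 RPKM in IRR(-/-) and 27.3, 32.0, 29.7 and 28.4 in wild-type kidneys on water. Its differences of -0.50 ± 0.07 (adjusted p = 0.00015) and -0.44 ± 0.07 on bicarbonate (adjusted p = 0.000536) were likewise without overlap. Dnajc8, found with splicing factors, was 40.1, 52.9, 42.2 and 37.2 RPKM in IRR(-/-) and 65.6, 58.2, 57.3 and 63.1 in wild-type kidneys on water. It differed by -0.51 ± 0.09 on water (adjusted p = 0.001) and by -0.28 ± 0.09 on bicarbonate (adjusted p = 0.0461), where the call was lost without any library but IRR(-/-) replicate 3 and in 5 of 9 other settings. Dnaja2, a cytosolic partner of Hsp70, averaged 77.8 ± 2.87 RPKM in IRR(-/-) and 88.7 ± 4.14 RPKM in wild-type kidneys on bicarbonate, a small difference of -0.19 ± 0.05 (adjusted p = 0.0223) that was -0.11 (adjusted p = 0.151) once corrected for length and GC content, and was lost without IRR(-/-) bicarbonate replicate 4 or wild-type bicarbonate replicate 1 or 3. Of the J-protein genes averaging at least 100 RPKM, Dnajc19 is described above, and Dnaja1 and Dnajb6 were called on neither drink. Dnaja1 differed by 0.01 ± 0.11 on water and 0.08 ± 0.11 on bicarbonate, and Dnajb6 by -0.01 ± 0.05 and 0.06 ± 0.05. Dnajc14 was too erratic to read, from a listed 0 to 4.75 RPKM within the IRR(-/-) water group, and 25.8% of its 31-base words occur in Ormdl2.

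Genes that work with these chaperones were called in both directions. The counts of the 4 lists that follow are read against those same shares of all genes, 10.1% up and 11.8% down with water and 9.03% up and 9.36% down with bicarbonate, and nothing particular to a list is read from them. Of 15 other genes of ER folding and the unfolded protein response, none was higher and 3 lower in IRR(-/-) on water (Canx, Pdia3 and Xbp1), and 1 was higher (Atf6) and 2 lower (Canx and Xbp1) on bicarbonate. Xbp1, a transcription factor of that response, averaged 29.5 ± 2.25 RPKM in IRR(-/-) and 55.2 ± 10.2 RPKM in wild-type kidneys on water, a log2 difference of -0.88 ± 0.12 (adjusted p = 9.74e-05), and differed by -0.43 ± 0.12 on bicarbonate (adjusted p = 0.0202). The 12 others on water, which did not pass, include the stress targets Ddit3 at -0.09 ± 0.17 and Herpud1 at 0.02 ± 0.18. Canx, the lectin chaperone calnexin, differed by -0.28 ± 0.08 on water and -0.34 ± 0.08 on bicarbonate.

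Of 13 HSF1 and cytosolic co-chaperone genes, 2 were higher (Bag3 and Cdc37) and 2 lower (Bag1 and Fkbp4) on water, and 1 higher (Cdc37) and 2 lower (Bag1 and Fkbp4) on bicarbonate. Cdc37, which brings kinases to Hsp90, averaged 7.61 ± 0.160 RPKM in IRR(-/-) and 3.96 ± 0.307 RPKM in wild-type kidneys on water (SD, n = 4 each), a log2 difference of 0.93 ± 0.08 (adjusted p = 3.14e-06). Fkbp4, which joins steroid receptors to Hsp90, went down, with -0.65 ± 0.08 on water (adjusted p = 6.57e-05) and -0.47 ± 0.08 on bicarbonate (adjusted p = 0.00116).

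Of 8 genes of prefoldin, which hands actin and tubulin to CCT, and other CCT helpers, 1 was higher and 1 lower on each drink. The lower one was Vbp1, a prefoldin subunit, at 24.0 ± 2.74 RPKM in IRR(-/-) and 41.2 ± 1.31 RPKM in wild-type kidneys on water, with differences of -0.78 ± 0.10 (adjusted p = 6.26e-05) and -0.80 ± 0.10 on bicarbonate (adjusted p = 7.41e-05). Of 10 genes of mitochondrial import and quality control, 2 were higher (Clpp and Hscb) and 2 lower (Clpb and Lonp1) on water, and 2 lower (Lonp1 and Pam16) on bicarbonate. Lonp1, the main protease of the matrix, differed by -0.36 ± 0.07 on water (adjusted p = 0.00239) and by -0.40 ± 0.07 on bicarbonate (adjusted p = 0.00128).

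Transcript lengths of the called members overlapped between the directions, and no test was made of them. The 4 genes higher on both drinks had longest transcripts of 964 to 3070 nt with a median of 1527, the 15 lower on both 1564 to 5141 nt with a median of 2484, and all 72 a median of 3014 nt. After correction of each library for length and GC content, 26 members were called on water, 23 of them among the 27, and 20 on bicarbonate, all 20 among the 23.

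No chaperone gene passed the test between bicarbonate and water in either genotype. In IRR(-/-) kidneys 0 of 72 members were called for bicarbonate against water, beside 0.0232% of all genes, and in wild-type kidneys 0 of 72, beside 0.139% of all genes. For the mean of both genotypes it was 0 of 72, beside 0.44%, and for the interaction, which asks whether the responses differ, 0 of 72, beside 0.0155%. At an unadjusted p under 0.05 there were 8 members in IRR(-/-), 7 in wild type, 5 for the mean and 6 for the interaction, beside 7.99, 12, 11.3 and 8.19% of all genes. On simulated data of this design 80% of genes with a 2-fold change were found in the IRR(-/-) drink comparison and 76% in the wild-type one, but 46% and 52% of those with a 1.5-fold change, and 48% of 2-fold interactions. Those data held 100 genes changed 1.5-fold and 100 changed 2-fold. In the kidneys the drink comparisons called 3 genes in IRR(-/-) and 18 in wild type, and the interaction 2. With so few calls the adjusted threshold is stricter, so the shares found may be lower here.

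The members with the smallest p for drink differed in size of effect. In IRR(-/-) kidneys Dnaja2 was 76.6, 79.8, 80.4 and 74.2 RPKM on bicarbonate and 82.2, 86.3, 86.9 and 89.1 on water, a log2 difference of -0.15 ± 0.05 with an adjusted p of 0.496. In wild-type kidneys Dnajb6, a J-protein that keeps proteins from forming amyloid, was 107, 97.2, 105 and 102 RPKM on bicarbonate and 114, 113, 116 and 119 on water, a difference of -0.17 ± 0.05 (adjusted p = 0.22). Neither difference passed.

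Hspb6 in wild-type kidneys was 6.08, 7.39, 8.08 and 5.83 RPKM on bicarbonate and 3.65, 3.96, 5.60 and 6.52 on water, a difference of 0.49 ± 0.17 (adjusted p = 0.251). Dnajc4 had the smallest p of the interaction, with a response of -0.25 ± 0.11 in IRR(-/-) and 0.26 ± 0.11 in wild-type kidneys and an interaction of -0.52 ± 0.15 (adjusted p = 0.462). Other members among the 5 smallest p of a comparison were Dnajc2 (-0.23 ± 0.09), Dnajc9 (0.27 ± 0.11) and Hspa13 (0.20 ± 0.09) in IRR(-/-) kidneys, and Dnajc3 (-0.19 ± 0.06), Hspb7 (0.48 ± 0.17) and Dnajb7 (-0.76 ± 0.27) in wild-type kidneys, as log2 differences between bicarbonate and water. None of them passed. For 3 main stress genes the 95% interval of the log2 difference between bicarbonate and water, for each gene by itself and not adjusted, was 0.00 to 0.79 for Hspa5 in IRR(-/-) and -0.41 to 0.38 in wild type, -0.53 to 0.60 for Hspa1b in IRR(-/-) and -0.41 to 0.71 in wild type, and -0.22 to 0.04 for Hspd1 in IRR(-/-) and -0.28 to -0.02 in wild type.

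Beneath the genotype difference, animals of 1 group differed together in their stress genes. The deviation of each library from its group mean was compared across all 16 libraries, with permutation within groups (100000 resamples, two-sided) and adjustment over the 50 tests of 25 relations. The partner genes were chosen beforehand, and the other genes of the table were not tried. The share of all genes with such relations is therefore unknown, and the counts do not show that they are particular to stress genes. Hsph1 went with Hspa1b (Pearson r = 0.85, adjusted p = 0.0116, Spearman rho = 0.88, adjusted p = 0.0116) and with Hspa1a (r = 0.82, adjusted p = 0.0169, rho = 0.86, adjusted p = 0.0134). It also went with Hspb1 (r = 0.77, adjusted p = 0.0168, rho = 0.73, adjusted p = 0.0418), Hsp90aa1 (r = 0.73, adjusted p = 0.001, rho = 0.76, adjusted p = 0.0013) and Dnaja1 (r = 0.57, adjusted p = 0.0169, rho = 0.52, adjusted p = 0.0416). Without wild-type bicarbonate replicates 1 and 4, the 2 libraries farthest out in Hsph1, r was 0.77, 0.78, 0.72, 0.79 and 0.71 for these 5 genes in that order.

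These were 5 of 10 relations tried with Hsph1, and the other 5 did not pass. Among them were the stress genes Dnajb1 (r = 0.59, adjusted p = 0.0562, rho = 0.54, adjusted p = 0.0918), Hspb8 (r = 0.51, adjusted p = 0.218, rho = 0.46, adjusted p = 0.265) and Dnajb4 (r = 0.24, adjusted p = 0.517, rho = 0.26, adjusted p = 0.517), and the constitutive genes. Hspa8 had r = 0.14 with Hsph1 (adjusted p = 0.755, rho = 0.28, adjusted p = 0.549) and Hsp90ab1 r = 0.20 (adjusted p = 0.595, rho = 0.01, adjusted p = 0.966). For Hspa8 the value was 0.95 over the 8 IRR(-/-) libraries and -0.23 over the 8 wild-type libraries, and 0.46 over all libraries but wild-type bicarbonate replicate 3. The difference between the genotypes was not tested.

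Of 15 relations tried with Hspa5, 8 passed, 6 of them positive and 2 negative. Its deviations followed those of Hyou1 (r = 0.92, adjusted p = 0.0015, rho = 0.93, adjusted p = 0.0015), an ER Hsp110, and of Hsp90b1 (r = 0.91, adjusted p = 0.001, rho = 0.92, adjusted p = 0.001). They also followed Sdf2l1 (r = 0.87, rho = 0.87), Dnajb11 (r = 0.85, rho = 0.79), Pdia4 (r = 0.84, rho = 0.86) and Dnajb9 (r = 0.71, rho = 0.74), with adjusted permutation p from 0.001 to 0.0238 for r and from 0.0015 to 0.0153 for rho. Without the 2 farthest libraries, IRR(-/-) bicarbonate replicate 1 and IRR(-/-) water replicate 4, r was 0.89 for Hyou1, 0.92 for Hsp90b1 and 0.49 for Dnajb9, so the last rests in part on those libraries.

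A pair of ER members ran against Hspa5. Dnajc10, a J-protein that reduces disulfide bonds, had r = -0.78 (adjusted p = 0.0116, rho = -0.73, adjusted p = 0.0169) and Hspa13 r = -0.64 (adjusted p = 0.0345, rho = -0.64, adjusted p = 0.0392). Dnajc3, which shares the ER stress element, did not pass, with r = 0.20 (adjusted p = 0.629, rho = 0.16, adjusted p = 0.668). Its r was 0.77 over the 8 IRR(-/-) libraries and -0.72 over the 8 wild-type libraries, a difference that was not tested. The 6 others that did not pass were Dnajb12, Dnajb14, Dnajc1, Dnajc14, Dnajc16 and Dnajc25, with r from -0.28 to 0.35. Against the marker sums of 13 cell types or tissues, neither Hsph1 nor Hspa5 had a relation that passed in 26 tried; the nearest for Hspa5 was proximal tubule (r = 0.65, adjusted p = 0.226, rho = 0.66, adjusted p = 0.226).

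**Figure D5:**
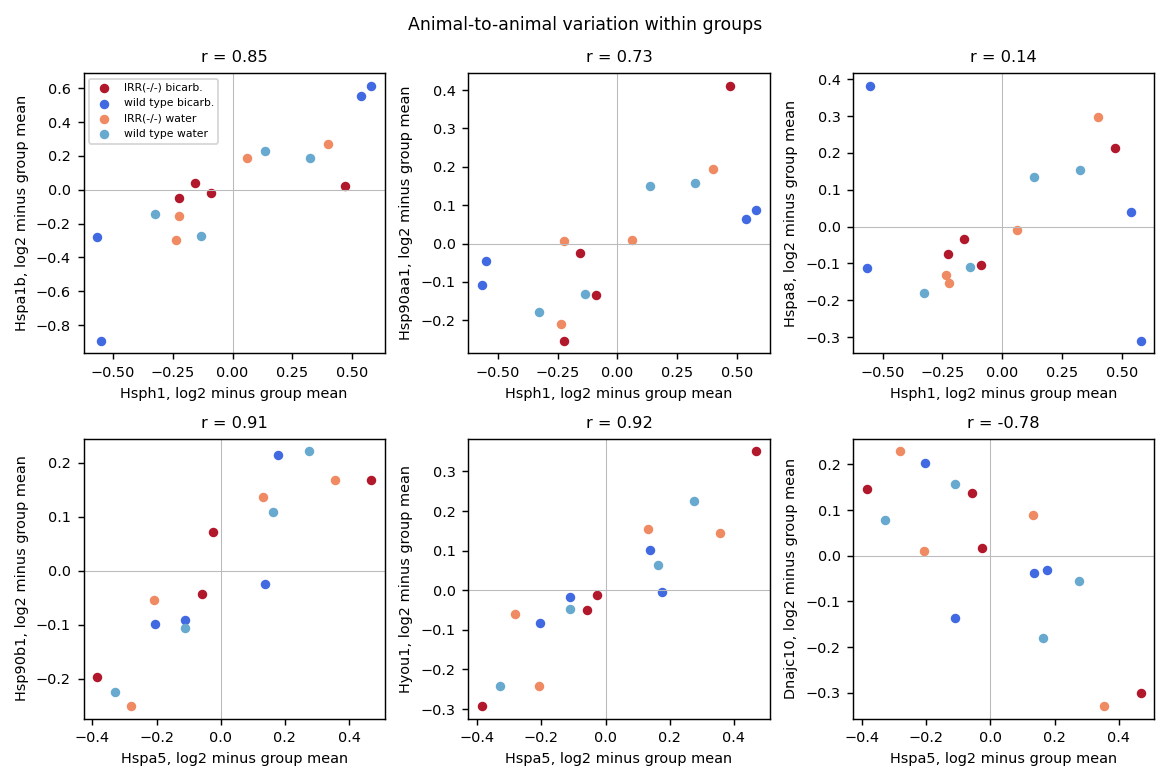
Deviation of each library from its group mean on the log2(RPKM + 0.1) scale, for Hsph1 (x axes, top) against Hspa1b, Hsp90aa1 and Hspa8, and for Hspa5 (x axes, bottom) against Hsp90b1, Hyou1 and Dnajc10. Each point is 1 of 16 libraries, coloured by group, with Pearson's r above each panel; Hspa1b, Hsp90aa1, Hsp90b1 and Hyou1 rise with the gene on the x axis, Dnajc10 falls, and Hspa8 does not follow Hsph1 in the wild-type bicarbonate group.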

How the data were processed

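RNA of 16 kidneys was compared. The deposited values are RPKM per gene, made by the authors. The submitters' processing notes name Salmon 1.5.2, edgeR 3.34.0 and the builds GRCm39 and mm10 without their roles. The files give no counts, so depth is unknown. Ensembl IDs took symbols, positions and lengths from GENCODE M21 (GRCm38). Values were transformed as log2(RPKM + 0.1), 487 genes without 0.5 RPKM in at least 4 libraries were set aside, and limma 3.58.1 in R 4.3.3 was fitted to the 12943 others, with 1 mean per group, 12 residual degrees of freedom and Benjamini-Hochberg adjustment over all genes. Means are given ± SD and log2 differences ± SE. The fit was tested on simulated data. Replicates are separate mice. Alternatives were other pseudocounts, filters, scalings, length and GC correction, a replicate block, other fits and leaving out each library. Named members are 21 well-known ones, the 8 highest and 8 lowest called in each genotype comparison and the 5 smallest p of each other comparison. Members named beside these were chosen after their values were seen. The members, lists and tests were chosen with earlier results of these data known.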

Additional observations from a re-analysis of the deposited data

Results flagged for a closer look

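In 156 groups of 4 values looked at, 11 held a library far from the other 3 by Dixon's criterion, which chance gives in about 1 of 20 groups. Among IRR(-/-) mice on bicarbonate, replicate 4 was low in Cct3 (39.0 RPKM, the others 43.4 to 44.1) and in Dnajc22 (20.5, the others 23.2 to 23.6). Replicate 1 of that group was high in Hsph1 (44.3, the others 27.3 to 30.0). Among IRR(-/-) mice on water, replicate 4 was high in Cct4 (87.3, the others 72.6 to 75.0) and in Cct8 (88.5, the others 85.3 to 85.5). In the same group Dnajc19 was low in replicate 1 (110.3, the others 188 to 192) and Dnajc9 was low in replicate 2 (8.44, the others 10.6 to 10.8).

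Among wild-type mice on bicarbonate, replicate 3 was high in Hsp90ab1 (579 RPKM, the others 465 to 481) and in Hspa9 (404, the others 326 to 338), and replicate 1 was high in Dnajc8 (61.4, the others 55.7 to 56.3). Among wild-type mice on water, replicate 1 was high in Hsp90ab1 (535, the others 435 to 446).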

How the results depend on the processing

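No value named in the text reversed its direction where it had been called, and the counts of called members stayed within 1.5 times the reported ones. Leaving out each library in turn gave 22 to 29 members called between the genotypes on water and 17 to 21 on bicarbonate, and 0 in each comparison of drink and for the interaction. The 9 other settings gave 25 to 30 on water and 17 to 23 on bicarbonate. Of the named members called on water, 22 of 26 kept the call under all of these, and 15 of 23 did so on bicarbonate. Fitting only the 2 groups compared ended 6 of these bicarbonate calls (Dnaja2, Dnajb1, Dnajc3, Dnajc4, Dnajc30 and Hspa8). On water it ended those of Dnajc19 and Hspb7 and added that of Hsph1. Dnaja2 on water, which did not pass, did so under quantile normalization (-0.19, adjusted p = 0.00705).

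Replicate numbers recur in each group, and the labels do not say whether they pair the mice. Over 24 same-numbered pairs the correlation of deviations was -0.0975 to 0.105, and 2 pairs exceeded 0.1. Such values show no strong pairing but cannot settle whether same-numbered mice shared a litter or a day. With the replicate number as a block the counts were 30 on water, 22 on bicarbonate and 0 for the drink comparisons and the interaction. Over all genes the block gave 2 calls between the drinks in wild type, against 18 without it. Among the members called under the block on water were Hsph1 (adjusted p = 0.0196), Dnajb1 (adjusted p = 0.0323) and Hspa1a (adjusted p = 0.035), which did not pass without it.

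The files give RPKM without counts, so depth is unknown and no counting error is given.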
